A study of Rattus norvegicus with 18 samples.

Results

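The comparison described here set the knee synovium of AIA-hot-WTD rats against that of normal control rats. Its members were chosen by their group label alone, which gave 3 AIA-hot-WTD arrays and 3 control arrays, 6 of the 18 arrays in the series. AIA is adjuvant-induced arthritis, and WTD is a Chinese herbal formula. AIA-hot-WTD rats carried the hot form of the arthritis model and received WTD. AIA-hot rats carried the same model without WTD, AIA-cold-WTD rats carried the cold form and received WTD, and control rats had neither arthritis nor treatment. All were male Lewis rats, an inbred strain that is prone to this arthritis, and they were 6 to 8 weeks old. How the hot and cold forms were produced, how WTD was given, and the time of sampling are not given in the sources used here. The sample codes of the 3 AIA-hot-WTD arrays carry the letters D, G and Z, whose meaning is not given in the sources used here, so whether these rats received WTD in the same way cannot be told. The titles give each array its own sample code, call every one biological replicate 1 and name no animals. The labels give 6 rats per group. Whether each array is a different rat is not stated, so the p-values measure the spread between these arrays. That spread may be partly technical. The question was what still differs from normal synovium in hot-model rats under WTD.

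The synovium lines the joint and makes its lubricating fluid. In adjuvant arthritis it thickens, and blood-borne cells enter it: neutrophils, which carry the S100a8 and S100a9 proteins and granule enzymes, monocytes and macrophages, which make interleukin-1β and CC chemokines, and T cells. Lining fibroblasts then release matrix-degrading enzymes, and osteoclasts erode the bone beside the joint. Glucocorticoids, from the adrenal gland or given as drugs, restrain this inflammation through a nuclear receptor whose well-known targets include Fkbp5 and Zbtb16.

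Levels are given as the log2 signal of a gene's probe minus the 75th percentile of the gene probes on the same array, called the log2 level below. Levels on this scale are compared between arrays for the same gene, never between genes. Control replicate 1 stood apart. Its 75th percentile of signal was 68.9, against 201 to 331 on the other 17 arrays, and 43.3% of its gene probes were well above background, against 56.3% to 76.5%. Its correlation with the other 5 arrays of the comparison was 0.909 to 0.934, against 0.973 to 0.991 among those 5, across genes. Called genes with a symbol and list medians are therefore given with and without it, and the other called transcripts only in part. All 3 control arrays lay on slide 1 and all 3 AIA-hot-WTD arrays on slide 3, so slide and group cannot be told apart within these 6 arrays. All 9 defining markers of synovial fibroblasts and lining, among them Prg4, Pdpn and Col1a1, were well above background on all arrays of both groups. Their summed level, in multiples of the 75th percentile, was 961 to 1254 on AIA-hot-WTD arrays and 729 to 1201 on control arrays. Markers of other tissues were high on few arrays. Cartilage markers summed to 2925 on control replicate 1, against 31.1 to 85.4 on the other 5 arrays. Bone markers summed to 92.8 on AIA-hot-WTD replicate 2 and 33.0 on control replicate 1, against 0.42 to 1.95 on the other arrays. Skeletal muscle markers summed to 134 on AIA-hot-WTD replicate 3, the highest of the 6 arrays.

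Few single genes separated AIA-hot-WTD from control synovium at a Benjamini-Hochberg adjusted p under 0.05 in limma. Of 23598 genes and transcripts tested, 19 passed (0.0805%), 7 of them higher (0.0297%) and 12 lower (0.0509%) in AIA-hot-WTD. At an unadjusted p under 0.05 there were 3193 (13.5%), against the 1180 that would come with no difference anywhere; 1081 were higher (4.58%) and 2112 lower (8.95%). The 3 AIA-hot-WTD arrays lay wholly above the 3 control arrays for 1599 genes (6.78%) and wholly below them for 2652 (11.2%). Without control replicate 1 the count was 22 (0.0932%), of which 12 were among the 19. The count was 0 when slide entered as a block, whether random or fixed, and 0 when only the 6 arrays were fitted, where the smallest adjusted p was 0.429. It was also 0 without AIA-hot-WTD replicate 1 and without AIA-hot-WTD replicate 3, and 4 without AIA-hot-WTD replicate 2. Of the 3 AIA arrays, 1 shared the slide of the controls. That array lay nearer to the control than to the AIA-hot-WTD mean for 9 of the 19 called genes, and the other AIA arrays, on another slide, for 7 and 9.

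Among the called genes with a symbol, 3 were higher in AIA-hot-WTD: Zbtb16, Ccl3 and Mocs3. Zbtb16 encodes a zinc-finger repressor that glucocorticoids are known to induce. Its log2 level was 0.17, -0.60 and -0.29 on the 3 AIA-hot-WTD arrays, against -3.23, -2.74 and -2.97 on the 3 control arrays. The groups lay far apart with little spread within either. The log2 difference was 2.74 ± 0.45 (SE from the fit of all 18 arrays, n = 3 arrays each), a fold of 6.69, with a limma adjusted p of 0.0358. It was 2.62 without control replicate 1, where the adjusted p was 0.0910, and another probe of the gene gave a log2 difference of 0.44. The probe lies on chromosome 8, 51934505 to 51934564, minus strand, in the rat build rn4, whose coordinates the array files give.

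Ccl3 encodes macrophage inflammatory protein 1α, a CC chemokine that draws monocytes and T cells. Its log2 level was -1.37, -1.45 and -1.18 on AIA-hot-WTD arrays and -3.23, -2.60 and -2.997 on control arrays, again with no overlap. The log2 difference was 1.61 ± 0.24, or 3.06-fold, with an adjusted p of 0.0211. Without control replicate 1 it was 1.47, with an adjusted p of 0.0602. The probe is on chromosome 10, 71744611 to 71744670 (rn4, minus strand). In untreated AIA-hot synovium the log2 level of Ccl3 was -1.52, -1.55 and -1.09.

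Mocs3 encodes an enzyme of molybdenum cofactor synthesis. Its log2 level was -2.18, -2.84 and -2.28 on AIA-hot-WTD arrays and -3.55, -3.49 and -3.88 on control arrays. None of the control arrays measured it well above background, so only a bound can be given: it was at least 1.51-fold higher, or at least 2.25-fold without control replicate 1. Such bounds set the bright group's mean against the higher of each dim array's lowest well-measured signal and the probe's own. The adjusted p was 0.0208, and 0.0367 without control replicate 1. Under normexp background correction the log2 difference was -0.02.

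The 5 called genes with a symbol that were lower in AIA-hot-WTD were Irak2, Ubxn2b, Gria2, Olfml2a and Dusp14. Irak2 encodes a kinase that relays signals from interleukin-1 and Toll-like receptors. Its log2 level was -6.22, -6.08 and -6.39 on AIA-hot-WTD arrays, none well above background, and -0.46, -2.14 and -3.08 on control arrays, all well above it. Irak2 was at least 5.12-fold lower, or at least 3.11-fold without control replicate 1, with adjusted p-values of 0.0208 and 0.0110. The control arrays spread over more than the whole AIA-hot-WTD group did, with control replicate 1 highest. Its probe spans 149588306 to 149591904 on chromosome 4 (rn4, plus strand). On untreated AIA-hot arrays the log2 level was -6.01, -5.78 and -6.35. The AIA array that shared a slide with the controls had -4.33, and the other AIA arrays had -5.86 and -5.67; the part of slide in the Irak2 difference was not tested further than by the slide blocks.

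Ubxn2b encodes an adaptor of the p97 ATPase that acts in Golgi and endoplasmic reticulum assembly. Its log2 level was -2.49, -2.26 and -2.43 on AIA-hot-WTD arrays and 0.81, -0.76 and -0.96 on control arrays. The log2 difference was -2.09 ± 0.33 (adjusted p = 0.0355), and -1.53 without control replicate 1, where the adjusted p was 0.00894. Dusp14, a dual-specificity phosphatase that dampens MAP kinase and T cell receptor signalling, stood at -0.54, -0.69 and -0.42 against 0.36, 0.64 and 0.42 in control. Its log2 difference was -1.02 ± 0.13 (adjusted p = 0.0208), and -1.07 without control replicate 1 (adjusted p = 0.0172). Neither gene overlapped between groups, and control replicate 1 was the highest control for Ubxn2b but the lowest for Dusp14.

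Olfml2a encodes a secreted olfactomedin-domain protein of the extracellular matrix. It stood at 0.09, 0.14 and 0.15 on AIA-hot-WTD arrays and 1.28, 1.19 and 1.22 on control arrays, with little spread within either group. Its log2 difference was -1.10 ± 0.15 (adjusted p = 0.0208), with an adjusted p of 0.0367 without control replicate 1, and 3 other probes of the gene gave log2 differences from -0.98 to -0.69. Gria2, an AMPA-type glutamate receptor subunit, was not well above background on any AIA-hot-WTD array and was so on 2 of 3 control arrays. Its log2 level was -5.48, -5.17 and -4.52 in AIA-hot-WTD and -2.55, -3.17 and -3.57 in control. Gria2 was an estimated 2.20-fold or more lower (adjusted p = 0.0208), which is not a strict bound because 1 control array was itself dim. Without control replicate 1 the estimate was 1.82-fold or more (adjusted p = 0.0480).

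**Figure D1:**
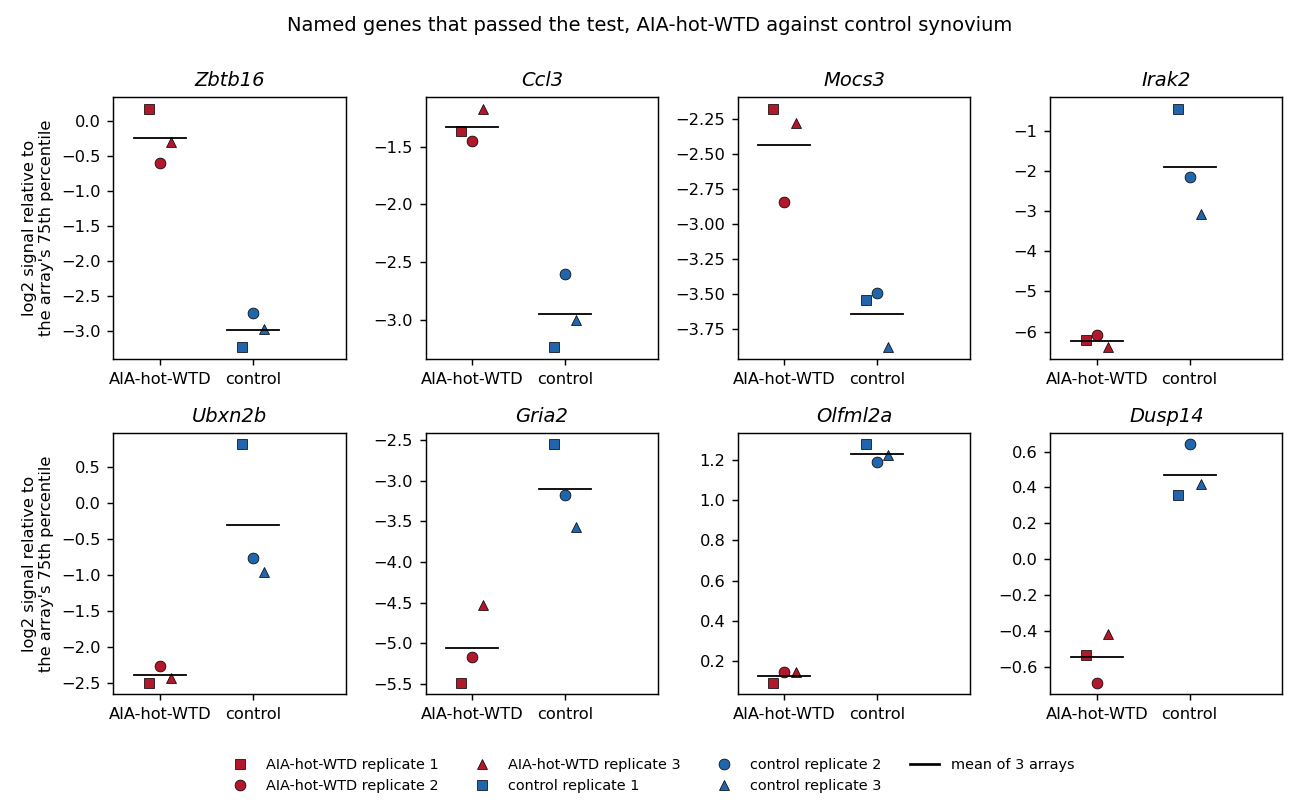
Log2 signal relative to the array's 75th percentile (y axis) of the 8 named genes that passed the test, on each AIA-hot-WTD array (left) and each control array (right), with the mean of 3 arrays as a line. Zbtb16, Ccl3 and Mocs3 lie higher and the other 5 lower in AIA-hot-WTD with no overlap between groups, and control replicate 1 (square) is the highest control for Irak2, Ubxn2b, Gria2 and Olfml2a.

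The other 11 called transcripts carry no gene symbol or a placeholder. TC590058, which the array describes as squalene monooxygenase, had log2 levels of -0.33, 0.11 and -0.06 in AIA-hot-WTD and 1.25, 1.13 and 1.10 in control. Its log2 difference was -1.25 ± 0.19 (adjusted p = 0.0208), and its adjusted p without control replicate 1 was 0.0543. With slide as a fixed block the log2 difference of TC590058 was -0.19. Its level was 0.76 on the AIA array on the control slide and 0.14 and 0.32 on the other AIA arrays. Its probe lies on chromosome 7, 96096738 to 96096797 (rn4, plus strand), at lower coordinates than the probe for Sqle, the gene of that enzyme, at 96111449 to 96111508 on the same strand. TC605652, with no description, was lower by a log2 difference of -2.78 ± 0.42 (adjusted p = 0.0208, and 0.0367 without control replicate 1). BI289559, BE113460 and A_44_P324138 were well above background on all control arrays and on no AIA-hot-WTD array, and were at least 6.55-fold, 9.12-fold and 7.47-fold lower. Without control replicate 1 those bounds were 3.56-fold, 4.89-fold and 4.34-fold. For these 3 transcripts the AIA array on the control slide had log2 levels of -2.22, -2.996 and -3.37, higher than both other AIA arrays in each case. The remaining called transcripts were 1700012B07Rkl and BQ204855, lower by log2 differences of -2.94 and -2.91 though well above background on only 1 of 3 AIA-hot-WTD arrays each, which leaves their size uncertain, and A_44_P248371, CO558037, ENSRNOT00000072844 and TC604605, higher by 1.25, 1.84, 1.53 and 0.84. The last of these is described as selenophosphate synthetase 1, and ENSRNOT00000072844 as a ribosomal protein L19-like transcript. A_44_P248371 was not well above background on any control array and was at least 1.09-fold higher, and its log2 difference was -0.23 under normexp background correction. That of TC604605 was -0.20 there.

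The genes next in order of p did not pass the test. Sqle, which makes the first oxygenated intermediate of sterol synthesis, had log2 levels of -1.19, -0.95 and -1.11 in AIA-hot-WTD and 2.34, 0.59 and 0.44 in control. Its log2 difference was -2.21 ± 0.39 (adjusted p = 0.0522), and without control replicate 1 it was -1.59 and passed (adjusted p = 0.0367). Fkbp5, a co-chaperone of steroid receptors, had 4.14, 3.58 and 3.41 in AIA-hot-WTD and 1.31, 2.14 and 1.82 in control (difference 1.96 ± 0.35, adjusted p = 0.0543, and 0.108 without control replicate 1). Plxdc1, an endothelial surface protein, and Papss2, which supplies sulfate for proteoglycans, had log2 differences of -1.22 ± 0.21 and -0.71 ± 0.13 (adjusted p = 0.0522 each). The phosphate transporter Slc20a1, the Golgi protein Golm1, the calmodulin-like Calml4 and the protocadherin Pcdh10 had differences of -0.77, -0.87, -0.88 and -1.46. None of these groups overlapped. Tekt5l1, Or4d10, Pcdh15 and Wdr76 were well above background on all control arrays and on no AIA-hot-WTD array. Probes were kept where all 3 arrays of some group were well above background. Of these 2 groups, only control met that filter for the 4 genes, as it did for the called Irak2, BI289559, BE113460 and A_44_P324138. For the called Zbtb16, Ccl3, Mocs3, Gria2 and A_44_P248371 control did not meet it. With no such filter all 19 called genes still passed. Tekt5l1, Or4d10, Pcdh15 and Wdr76 were at least 4.14-fold, 3.99-fold, 5.02-fold and 4.96-fold lower, with adjusted p-values of 0.0522 to 0.0618. Without control replicate 1 those bounds were 2.02-fold, 2.12-fold, 2.54-fold and 3.80-fold. Wdr76 had a log2 difference of 0.15 with slide as a fixed block.

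Beyond single genes, 39 lists of pathway and cell type genes were described by their counts and medians beside those of all genes tested, whose median log2 difference was -0.06 (-0.04 without control replicate 1). Only 3 of these lists held a called member, with 1 each: Irak2, Ccl3 and Zbtb16. Where a named gene was dim, its control values are less certain: Zbtb16, Ccl3, Il1b, Il1rn, Ccl5, Cxcl1, RatNP-3b, Defa5, Cmpk2, Nkg7, Gzmm, Cd8b, Fcgr3a, Mcpt8, Chad, Axin2, Adamts4 and Per3 were well above background on 2 of 3 control arrays, and Ccl4 and Slc4a1 on 1. Hspa4l and Acan were so on 2 arrays of each group, and Mmp9 on 2 AIA-hot-WTD arrays and 1 control array. In bulk tissue, fewer cells of a type and less RNA per cell cannot be told apart.

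**Figure D2:**
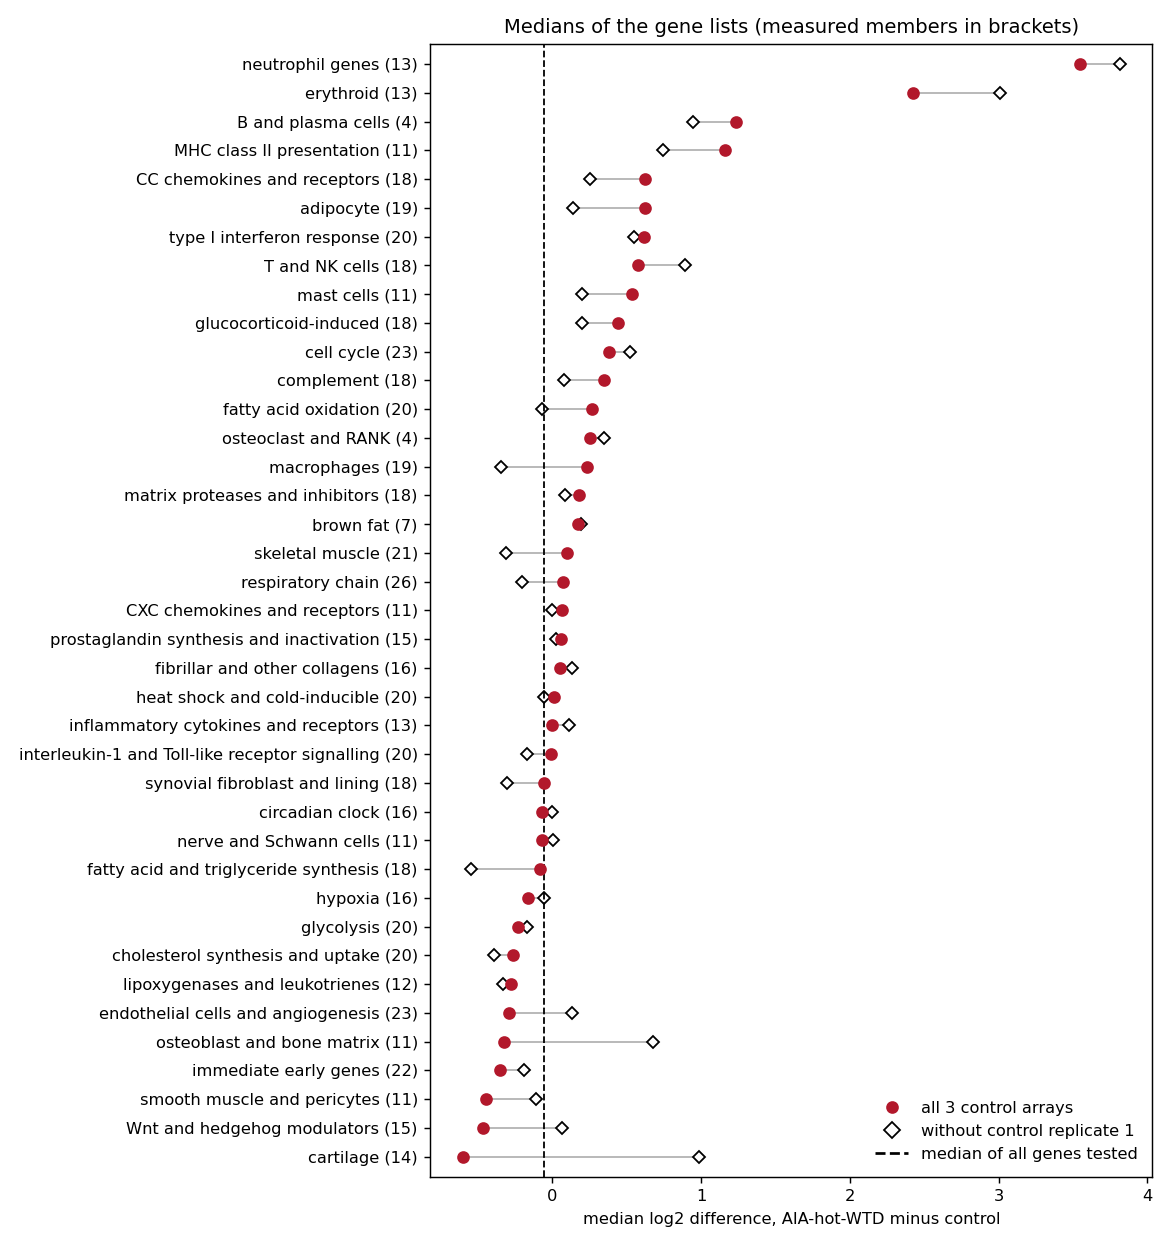
Median log2 difference, AIA-hot-WTD minus control (x axis), of the measured members of each of 39 gene lists, with all 3 control arrays (filled) and without control replicate 1 (open); the dashed line is the median of all genes tested, -0.06. Neutrophil and erythroid genes lie farthest to the right under both, at 3.55 and 2.42 with all arrays, while the cartilage median is -0.60 with all arrays and 0.98 without control replicate 1.

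Neutrophil genes had the highest median of the 39 lists. All 13 measured of 20 had a log2 difference above 0, against 42.4% of all genes tested, and for 9 the 3 AIA-hot-WTD arrays lay wholly above the controls, against 6.78%. On the AIA-hot-WTD arrays 12, 13 and 13 of these genes were well above background, and on the control arrays 10, 10 and 8. Some therefore met the filter on dim probes only through groups other than control. None passed the adjusted test, the smallest adjusted p being 0.111. S100a9, a calcium-binding protein abundant in neutrophils, had log2 levels of 3.61, 6.75 and 4.53 in AIA-hot-WTD and 0.20, 0.23 and -1.20 in control. Its partner S100a8 had 2.97, 6.46 and 3.96 against -0.47, 0.11 and -0.91. The lowest AIA-hot-WTD array lay above the highest control for both, and AIA-hot-WTD replicate 2 was far above the other treated arrays. The log2 differences were 5.22 ± 1.29 (adjusted p = 0.111) and 4.89 ± 1.39 (adjusted p = 0.153).

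The granule genes kept the same order among the AIA-hot-WTD arrays. The α-defensin RatNP-3b had log2 levels of 3.39, 7.50 and 3.89 in AIA-hot-WTD and -0.89, -2.89 and -4.23 in control, a difference of 7.60 ± 1.97 (adjusted p = 0.120). Defa5, another α-defensin, differed by 8.04 ± 2.26 (adjusted p = 0.146); the defensins are near-identical copies, and their probes may read each other's transcripts. The cathelicidin Camp had 1.67, 5.06 and 2.52 against -1.28, -2.07 and -2.80. Ctsg, the granule protease cathepsin G, and Padi4, which citrullinates histones, were well above background on all AIA-hot-WTD arrays and on no control array. They were at least 9.74-fold and 4.77-fold higher, and AIA-hot-WTD but not control met the filter on dim probes for them. Camp, Ctsg and Padi4 were named after their values were seen. The mean log2 level of the list was 0.18, 3.72 and 1.20 on the AIA-hot-WTD arrays and -1.11, -2.37 and -2.88 on the control arrays. Its median difference was 3.55, and 3.81 without control replicate 1, 4.39 without AIA-hot-WTD replicate 1, 2.62 without AIA-hot-WTD replicate 2 and 2.21 under normexp background correction. In untreated AIA-hot against control the median was 0.66. The receptor gene Csf3r, a defining neutrophil marker, was below the well-measured range on every array of both groups.

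Erythroid genes came next. Of 13 measured of 19, 12 had a difference above 0, against 42.4% of all genes. For 8 the AIA-hot-WTD arrays lay wholly above the controls, against 6.78%. On the AIA-hot-WTD arrays 12, 13 and 13 of these genes were well above background, and on the control arrays 6, 10 and 7. Most of them therefore met the filter on dim probes only through groups other than control, which limits what these counts show. Slc4a1, the red cell anion exchanger, had log2 levels of 0.64, 3.15 and 1.34 in AIA-hot-WTD and -2.59, -0.88 and -5.72 in control (difference 4.77 ± 1.27, adjusted p = 0.128). Ahsp, the chaperone of α-globin, had 2.87, 6.14 and 3.48 against -0.48, 1.35 and -2.03 (4.55 ± 1.33, adjusted p = 0.160). Hbb-b1, a β-globin, had 8.65, 8.79 and 8.41 against 8.06, 8.22 and 6.49. Control replicate 3 was the lowest array for all 3 genes, and AIA-hot-WTD replicate 2 the highest. The list median was 2.42, 3.01 without control replicate 1, 0.80 under normexp, and 0.48 in untreated AIA-hot against control. The summed level of the defining markers Hbb, Alas2 and Slc4a1 was 141, 79.7 and 116 on AIA-hot-WTD arrays and 23.4, 77.4 and 5.34 on control arrays, so AIA-hot-WTD replicate 2 was the lowest treated array by that sum. It had the highest mean log2 level of the neutrophil and erythroid lists, and was the highest treated array for the bone marker Bglap, at 6.47 against -1.05 and 0.46 on the other treated arrays. Whether bone or marrow tissue in that sample has a part in these lists was not tested.

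**Figure D3:**
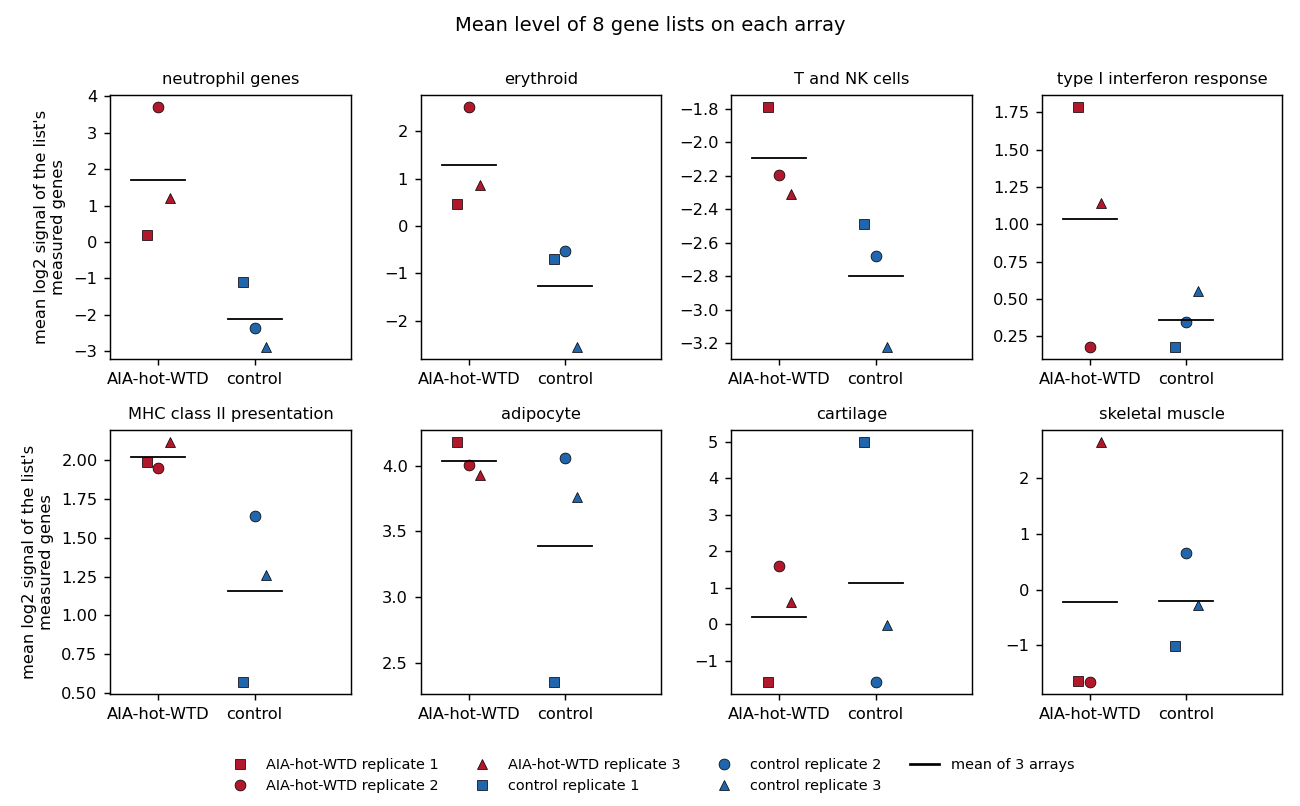
Mean log2 signal of the measured members of 8 gene lists (y axis) on each AIA-hot-WTD array (left) and each control array (right), with the mean of 3 arrays as a line. Neutrophil genes range from 0.18 to 3.72 in AIA-hot-WTD and from -2.88 to -1.11 in control; cartilage is 4.99 on control replicate 1 alone, and skeletal muscle 2.65 on AIA-hot-WTD replicate 3.

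Among the cytokines, Il1b, a main driver of joint inflammation, had log2 levels of 0.40, -0.80 and -0.28 in AIA-hot-WTD and -2.01, -1.25 and -1.66 in control. The groups did not overlap, and the difference was 1.41 ± 0.32 (adjusted p = 0.0818). In untreated AIA-hot it was 0.78, 0.27 and 0.35, higher than in control by 2.11 (adjusted p = 0.0343), while AIA-hot-WTD minus AIA-hot was -0.70 ± 0.32 (adjusted p = 0.999). Il1rn, the natural antagonist of interleukin-1, had -0.13, 0.58 and 0.12 in AIA-hot-WTD and -3.37, -1.12 and -1.37 in control, a difference of 2.14 ± 0.48 (adjusted p = 0.0818), or 1.43 without control replicate 1. Il6 stayed below the well-measured range in both groups, and Tnf and Ptgs2 did not pass the filter on dim probes. The list of 13 measured cytokines and receptors had 6 members above 0, 7 below, and a median of -0.00 (0.11 without control replicate 1). Of 20 genes that signal from the interleukin-1 and Toll-like receptors, 10 lay on each side of 0, with a median of -0.01 (-0.17 without control replicate 1). Beside Irak2, the smallest p there was that of Nfkbia, the inhibitor of NF-κB, at 2.87, 3.09 and 3.05 against 3.67, 3.32 and 3.42 (difference -0.47 ± 0.19, adjusted p = 0.295).

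CC chemokines and receptors had a median of 0.63 over 18 measured genes (0.26 without control replicate 1 and 0.05 under normexp). Of these, 13 lay above 0, against 42.4% of all genes, and 6 did not overlap, against 6.78%. On the control arrays 7, 17 and 15 of the list's genes were well above background, and on the AIA-hot-WTD arrays 18, 16 and 18. Most therefore met the filter on dim probes only through groups other than control. Ccl4, which shares receptors with Ccl3, had log2 levels of -2.25, -2.54 and -2.17 in AIA-hot-WTD and -4.14, -3.20 and -3.76 in control (1.38 ± 0.28, adjusted p = 0.0672). Ccl5, a T cell chemoattractant, had 1.50, 1.15 and 1.44 against -1.90, 0.15 and -0.59 (2.15 ± 0.59, adjusted p = 0.139). Ccl2, the main monocyte chemokine, overlapped, with 2.18, 1.13 and 1.79 against 1.22, 1.27 and 1.79. The CXC list, of neutrophil and lymphocyte chemoattractants, had a median of 0.07 over 11 genes (-0.00 without control replicate 1). Cxcl1 had -0.97, -2.21 and -1.37 against -3.77, -2.21 and -2.44 (1.29 ± 0.44, adjusted p = 0.219).

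In the list of T and NK cell genes none passed the test. Nkg7, a granule protein of NK and CD8 T cells, had log2 levels of 0.19, 1.97 and 0.04 in AIA-hot-WTD and -2.16, -1.58 and -2.08 in control (2.67 ± 0.59, adjusted p = 0.0773). The granzyme Gzmm had -0.31, -0.68 and -0.65 against -3.62, -1.64 and -2.19 (1.94 ± 0.44, adjusted p = 0.0868), and Cd8b, a CD8 co-receptor chain, -1.39, -1.99 and -1.98 against -3.85, -2.57 and -3.37. All 3 had no overlap between groups. Of 18 measured T and NK genes, 13 were above 0, against 42.4% of all genes, and 6 did not overlap, against 6.78%. On the AIA-hot-WTD arrays 18, 13 and 17 of these genes were well above background, and on the control arrays 4, 12 and 11. Most of them therefore met the filter on dim probes only through groups other than control, which limits what these counts show. The median was 0.58, 0.89 without control replicate 1 and 0.06 under normexp. The defining T cell markers Cd3e and Lck were not well above background on any control array. Fcgr3a, an IgG receptor of NK cells and macrophages, had 0.75, 0.08 and 0.73 against -3.80, -1.47 and -0.89 (2.57 ± 0.55, adjusted p = 0.0717), although the 19 measured macrophage genes had a median of 0.24, and -0.34 without control replicate 1. Mcpt8, a protease of basophils and mast cells, had -0.99, 0.97 and -1.21 against -3.02, -2.67 and -2.84 (2.44 ± 0.77, adjusted p = 0.193).

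MHC class II molecules present peptides to CD4 T cells, and their genes share a regulatory module in which a CCAAT-type Y box binds NF-Y. Of 11 measured genes, 10 had a difference above 0, against 42.4% of all genes, and 5 were wholly higher, against 6.78%. The median was 1.16, or 0.74 without control replicate 1. RT1-Bb, a β chain, had log2 levels of 5.70, 5.00 and 5.55 in AIA-hot-WTD and 2.76, 4.77 and 4.14 in control (1.53 ± 0.53, adjusted p = 0.228). RT1-Db2 had 2.16, 2.18 and 2.42 against 0.10, 1.44 and 1.09, and RT1-Ba 1.54, 1.13 and 1.69 against -0.50, 0.93 and 0.44. Control replicate 1 was the lowest array for all 3. The median of AIA-hot minus control was 1.08. Promoters of this family are shown because most members lay above 0 and share a known box. RefSeq (build GRCr8) holds a 300-base promoter for 10 of the 11, and all 10 contain CCAAT on either strand, as do 37.5% of all 33469 promoters of that length. In the sequences of RT1-Bb (chr20:4604069-4604368, minus strand) and RT1-Da (chr20:4515165-4515464, plus strand), capitals mark CCAAT or its complement.
RT1-Bb: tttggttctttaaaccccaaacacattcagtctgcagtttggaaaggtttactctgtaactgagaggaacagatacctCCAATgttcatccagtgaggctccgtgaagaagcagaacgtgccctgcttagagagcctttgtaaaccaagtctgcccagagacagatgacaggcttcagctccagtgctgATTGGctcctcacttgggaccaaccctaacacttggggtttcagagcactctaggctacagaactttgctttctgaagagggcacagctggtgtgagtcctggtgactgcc
RT1-Da: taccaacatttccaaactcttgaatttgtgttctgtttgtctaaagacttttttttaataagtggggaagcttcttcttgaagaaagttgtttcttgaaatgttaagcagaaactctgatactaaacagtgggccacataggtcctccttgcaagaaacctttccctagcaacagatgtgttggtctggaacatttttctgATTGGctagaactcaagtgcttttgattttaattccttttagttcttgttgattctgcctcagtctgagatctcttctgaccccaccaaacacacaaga

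Type I interferon response genes are switched on through an element whose core is TTTC, any 2 bases and TTTC again. Of 20 measured, 18 had a difference above 0, against 42.4% of all genes, and 3 were wholly higher, against 6.78%. The median was 0.62 (0.55 without control replicate 1, 1.09 without AIA-hot-WTD replicate 2 and 0.33 under normexp), against 1.14 for AIA-hot minus control. Rsad2, the antiviral enzyme viperin, had log2 levels of 2.33, 1.87 and 2.39 in AIA-hot-WTD and -0.91, 0.84 and -0.31 in control (2.33 ± 0.63, adjusted p = 0.132). Cmpk2, its genomic neighbour, had -1.14, -1.86 and -1.35 against -2.75, -2.15 and -2.14, and the RNA sensor Oas1a 4.84, 3.33 and 3.91 against 3.04, 2.86 and 3.17. The list mean on AIA-hot-WTD replicate 1 was 1.79, with 0.18 and 1.15 on the other treated arrays and 0.18 to 0.55 on the controls, and without that array the median difference was 0.16. The promoter of Rsad2 (GRCr8, chr6:48788071-48788370, minus strand) is shown for the core, in capitals, which 9 of the 14 list members with a promoter and 3.92% of all promoters hold on either strand.
Rsad2: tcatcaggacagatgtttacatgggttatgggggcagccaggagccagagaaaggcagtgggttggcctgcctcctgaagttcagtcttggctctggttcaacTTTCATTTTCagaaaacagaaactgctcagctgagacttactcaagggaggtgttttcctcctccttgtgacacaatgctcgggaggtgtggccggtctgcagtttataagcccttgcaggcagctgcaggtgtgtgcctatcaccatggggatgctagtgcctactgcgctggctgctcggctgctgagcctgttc

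Complement is a chain of plasma and tissue proteins that tags targets and draws in leukocytes. Cfb, the serine protease of its alternative pathway, had log2 levels of 3.63, 2.38 and 2.90 against 0.67, 1.21 and 0.86 in control (2.06 ± 0.41, adjusted p = 0.0618). C3, the central component, had 3.62, 2.45 and 2.36 against -0.80, 0.59 and 0.03 (2.87 ± 0.63, adjusted p = 0.0773), and Cfp, or properdin, -0.44, -0.09 and -0.41 against -1.55, -1.10 and -1.20 (0.97 ± 0.27, adjusted p = 0.141). The groups did not overlap for these 3. Over the 18 measured complement genes, 15 were above 0, against 42.4% of all genes. The median was 0.35, or 0.08 without control replicate 1 and 0.55 under normexp. None passed.

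Cholesterol is made from acetyl-CoA by a chain of enzymes whose genes are controlled together by SREBP-2 with NF-Y. Of 20 measured genes of synthesis and uptake, 18 had a difference below 0, against 57.6% of all genes, and 7 did not overlap, against 11.2%; the median was -0.26, and -0.39 without control replicate 1. Msmo1, a sterol demethylase, had log2 levels of 3.68, 3.67 and 3.78 in AIA-hot-WTD and 4.11, 4.47 and 4.33 in control (-0.59 ± 0.14, adjusted p = 0.0899). Sqle, given above, had the largest difference of the list. Another 3 with no overlap were named after their values were seen: Idi1, an isomerase, with 0.85, 1.14 and 1.04 against 1.61, 1.87 and 1.57; Mvd, a decarboxylase, with -0.18, 0.14 and -0.06 against 0.91, 0.57 and 0.35; and the demethylase Cyp51, with -0.84, -0.73 and -0.48 against -0.07, -0.13 and -0.19. Untreated AIA-hot minus control had a median of -0.37 for the list, and AIA-hot-WTD minus AIA-hot one of -0.01. With slide as a fixed block the difference of Mvd was 0.39.

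**Figure D4:**
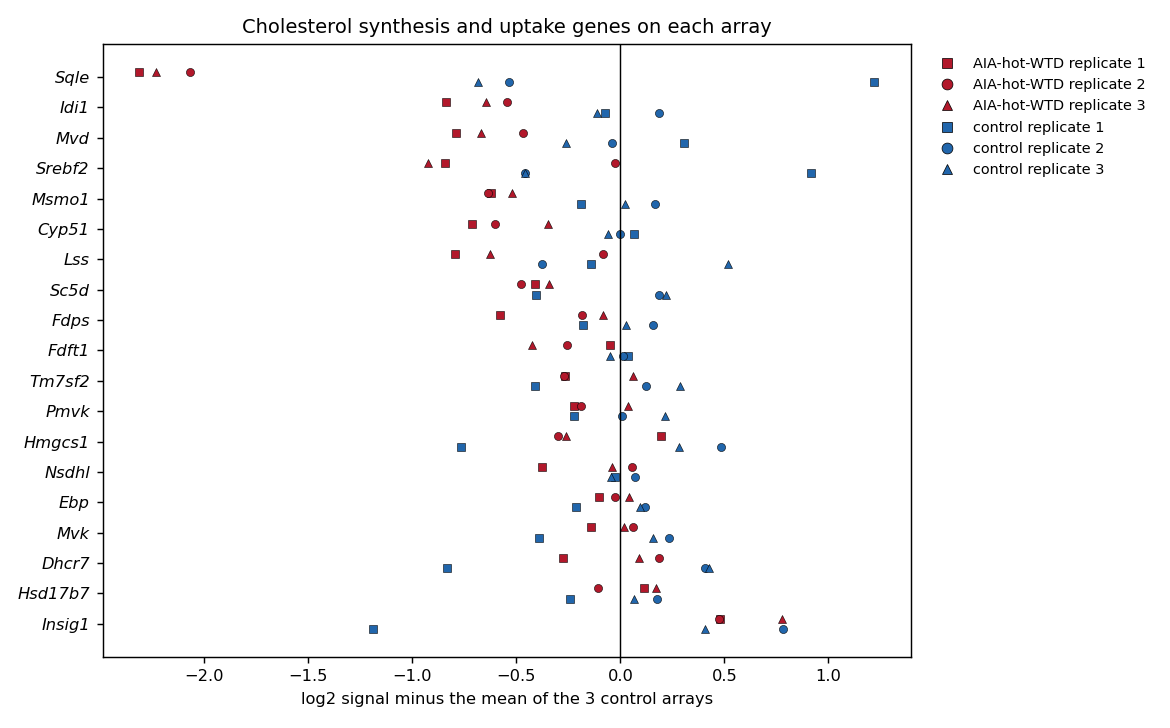
Log2 signal minus the mean of the 3 control arrays (x axis) for 19 of the 20 measured genes of cholesterol synthesis and uptake (rows, in order of difference), on each AIA-hot-WTD array and each control array. Sqle lies farthest to the left at a difference of -2.21, and Msmo1, Idi1, Mvd and Cyp51 also show no overlap between groups.

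The promoters of these members are shown for their CCAAT boxes. RefSeq holds 16 of the 20, of which 14 contain CCAAT on either strand (87.5%, against 37.5% of all promoters); the letters TCACNCCAC, a sterol regulatory element, occur in 0 of the 16 and in 1.12% of all. The sequences are of Msmo1 (GRCr8, chr16:29746863-29747162, plus strand, 3 matches), Idi1 (chr17:66547475-66547774, minus strand, 2 matches) and Mvd (chr19:67414925-67415224, minus strand, 2 matches), with CCAAT or its complement in capitals.
Msmo1: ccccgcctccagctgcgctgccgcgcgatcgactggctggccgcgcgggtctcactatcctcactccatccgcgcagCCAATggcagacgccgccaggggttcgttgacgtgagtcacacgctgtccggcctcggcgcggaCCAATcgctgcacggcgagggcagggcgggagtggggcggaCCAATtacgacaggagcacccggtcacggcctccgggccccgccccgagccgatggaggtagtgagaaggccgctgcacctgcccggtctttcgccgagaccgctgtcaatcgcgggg
Idi1: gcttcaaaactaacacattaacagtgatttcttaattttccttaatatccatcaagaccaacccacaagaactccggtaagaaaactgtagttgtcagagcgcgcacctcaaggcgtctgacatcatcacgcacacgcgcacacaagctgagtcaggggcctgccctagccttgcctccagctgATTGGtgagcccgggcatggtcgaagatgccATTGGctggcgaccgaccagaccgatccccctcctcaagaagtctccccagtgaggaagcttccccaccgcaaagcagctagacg
Mvd: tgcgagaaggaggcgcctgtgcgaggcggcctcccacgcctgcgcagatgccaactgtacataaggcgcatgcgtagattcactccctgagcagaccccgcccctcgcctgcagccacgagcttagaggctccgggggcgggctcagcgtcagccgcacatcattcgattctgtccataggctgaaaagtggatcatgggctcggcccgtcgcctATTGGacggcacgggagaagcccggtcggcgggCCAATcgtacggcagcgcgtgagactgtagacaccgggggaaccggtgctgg

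Glycolysis genes lay mostly below 0 as well, 17 of 20, against 57.6% of all genes, with a median of -0.23 (-0.17 without control replicate 1). Slc2a1, the glucose transporter GLUT1, had log2 levels of 1.80, 1.85 and 1.89 in AIA-hot-WTD and 3.00, 2.68 and 2.78 in control (-0.98 ± 0.21, adjusted p = 0.0712), with no overlap. The mutase Pgam1 had 5.95, 5.99 and 5.91 against 6.49, 6.35 and 6.21. Under normexp background correction the list's median was -0.00. The hypoxia list had a median of -0.16 over 16 genes (-0.05 without control replicate 1 and -0.01 under normexp). Of these, 6 were wholly lower, against 11.2% of all genes, and 1 wholly higher, against 6.78%. The lower ones included the mTOR inhibitor Ddit4, at -2.70, -2.47 and -2.78 against -0.97, -1.21 and -1.20 (-1.52 ± 0.40, adjusted p = 0.121). Another was the prolyl hydroxylase Egln3, at -0.46, -0.38 and -0.17 against 1.04, 0.06 and 0.96.

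Glucocorticoid-induced genes had a median of 0.44 over 18 measured (0.20 without control replicate 1). Of these, 6 were wholly higher, against 6.78% of all genes, and 1 wholly lower, against 11.2%. At an unadjusted limma p under 0.05, 5 were higher, against 4.58% of all genes, and 3 lower, against 8.95%. Besides Zbtb16 and Fkbp5, Angptl4, an inhibitor of lipoprotein lipase, had log2 levels of 3.42, 2.04 and 3.29 in AIA-hot-WTD and -0.59, 0.80 and 1.07 in control (2.49 ± 0.74, adjusted p = 0.169). The metallothionein Mt1, named after its values were seen, had 5.09, 5.10 and 3.68 against 3.62, 3.48 and 3.35. Dusp1, a phosphatase that glucocorticoids are also known to induce, lay the other way, at -0.68, -1.54 and -1.51 against 0.85, -0.81 and -0.40. The same list had a median of 0.42 in untreated AIA-hot against control. Immediate early genes respond within minutes to stimuli and to tissue handling. Of 22 measured, 16 were below 0, against 57.6% of all genes, with a median of -0.35 (-0.19 without control replicate 1 and -0.15 under normexp). Egr2 had -1.15, -1.62 and -2.02 against -0.78, -0.37 and -0.73, and Jun 3.77, 3.50 and 3.78 against 4.43, 3.98 and 4.17. Of the clock genes, the repressor Bhlhe41 had 2.61, 2.87 and 2.77 against 3.36, 3.71 and 3.49 (-0.77 ± 0.20, adjusted p = 0.121), while Per3 overlapped, with a difference of -0.01 ± 0.24.

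Of 18 measured matrix proteases and inhibitors, 2 were wholly higher, against 6.78% of all genes, and none passed the test. Adamts4, an aggrecanase, had log2 levels of -2.04, -2.53 and -2.38 in AIA-hot-WTD and -3.87, -2.77 and -2.79 in control (0.83 ± 0.32, adjusted p = 0.275), and the membrane protease Mmp14 had 6.85, 6.91 and 6.82 against 5.77, 6.68 and 6.63. The list median was 0.18 (0.09 without control replicate 1). The other enzymes named here overlapped. Mmp3, or stromelysin, had log2 levels of 2.53, 1.35 and 1.83 in AIA-hot-WTD and 1.47, 2.29 and 2.05 in control (-0.03 ± 0.66). The collagenase Mmp13 had -2.33, 2.21 and -0.16 against 0.90, -2.37 and -2.35, and the gelatinase Mmp9 -5.29, 0.36 and -2.11 against 0.55, -6.05 and -5.85. For the collagenase and the gelatinase the high arrays were AIA-hot-WTD replicate 2 and control replicate 1. The osteoclast genes Ctsk and Acp5 overlapped, with differences of 0.47 ± 0.50 and 0.04 ± 0.35. Tnfrsf11b, or osteoprotegerin, which restrains osteoclasts, had 0.72, 0.57 and 0.87 against 2.79, 1.13 and 1.52 (-1.10 ± 0.41, adjusted p = 0.261). The lubricin gene Prg4, made by lining cells, had 7.11, 7.60 and 7.59 against 7.32, 8.02 and 7.94 (-0.33 ± 0.28). The lining antigen Cd55 had -0.03, -0.03 and 0.39 against 0.51, 0.88 and 0.63. Col1a1, the main fibrillar collagen, had 7.46, 7.99 and 8.16 against 7.11, 7.27 and 7.38, with no overlap (0.62 ± 0.41, adjusted p = 0.546).

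Among Wnt and hedgehog modulators, Hhip, a hedgehog antagonist, had log2 levels of -3.53, -3.58 and -2.94 in AIA-hot-WTD and -1.44, -2.32 and -2.28 in control (-1.33 ± 0.35, adjusted p = 0.125). The Wnt agonist Rspo2 had -1.87, -1.81 and -2.05 against -1.45, -1.38 and -1.11, and the Wnt target Axin2 -3.65, -2.70 and -3.02 against -1.53, -2.51 and -2.42. All 3 had no overlap, but the list's median over 15 genes was -0.46 with all arrays and 0.06 without control replicate 1. Endothelial genes, 19 of 23 below 0, against 57.6% of all genes, had medians of -0.29 and 0.14 in the same way. The lymphatic growth factor Vegfc had 2.36, 2.50 and 2.83 against 3.81, 3.19 and 3.25 (-0.85 ± 0.25, adjusted p = 0.159).

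Markers of tissues around the synovium were high on few arrays. The 14 measured cartilage genes had a mean log2 level of -1.60, 1.58 and 0.60 on AIA-hot-WTD arrays and 4.99, -1.59 and -0.04 on control arrays. The aggrecan gene Acan stood at 2.67 on control replicate 1, against -5.56 and -3.52 on the other controls and -6.66, -1.37 and -3.05 in AIA-hot-WTD, and the chondrocyte factor Sox9 and the matrix genes Ucma and Chad had their highest level on the same array. The cartilage median was -0.60, and 0.98 without control replicate 1, and -0.15 without AIA-hot-WTD replicate 1. The mean of the skeletal muscle genes was 2.65 on AIA-hot-WTD replicate 3, against -1.65 and -1.67 on the other treated arrays and -1.01, 0.66 and -0.29 on controls. Creatine kinase, Ckm, stood at 4.99 there and at -1.08 and -1.94 on the other treated arrays. Of all 21 measured muscle genes, 14 were above 0, against 42.4% of all genes. The median was 0.10, -0.31 without control replicate 1 and -1.49 without AIA-hot-WTD replicate 3. The bone list's median was -0.32, and 0.68 without control replicate 1. Its mean log2 level was highest on control replicate 1, at 1.08, and next on AIA-hot-WTD replicate 2, at 1.06.

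Fat genes showed the same dependence. With all 3 control arrays, all 19 measured adipocyte genes had a difference above 0, against 42.4% of all genes. Their median was 0.63, and 0.14 without control replicate 1, whose mean of 2.35 lay below the 3.76 to 4.18 of the other 5 arrays. Adipoq, the adipokine adiponectin, had 7.85, 7.65 and 7.87 in AIA-hot-WTD and 5.63, 7.85 and 7.42 in control, and the lipase Pnpla2 3.95, 3.56 and 3.60 against 0.39, 2.41 and 2.59 (1.90 ± 0.82, adjusted p = 0.326). Fatty acid oxidation had 20 of 20 genes above 0, against 42.4% of all genes, with a median of 0.27, and -0.07 without control replicate 1. Cell cycle genes had 20 of 23 above 0, against 42.4% of all genes, and a median of 0.38. That median was 0.52 without control replicate 1, 0.06 without AIA-hot-WTD replicate 2 and -0.07 under normexp. On the control arrays 10, 20 and 17 of the cell cycle genes were well above background, and on the AIA-hot-WTD arrays 22, 23 and 23. Most therefore met the filter on dim probes only through groups other than control.

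The remaining lists held no called member. Their medians, with the value without control replicate 1 in brackets, were -0.45 (-0.11) for smooth muscle and pericytes, -0.28 (-0.33) for lipoxygenases and leukotrienes and -0.08 (-0.55) for fatty acid and triglyceride synthesis. Nerve and Schwann cells had -0.07 (0.01), the clock -0.07 (-0.00), synovial fibroblast and lining -0.05 (-0.31), heat shock 0.01 (-0.06), collagens 0.05 (0.13) and prostaglandins 0.06 (0.03). The respiratory chain had 0.07 (-0.20), brown fat 0.18 (0.20) and the 4 osteoclast genes measured 0.26 (0.35). Mast cells had 0.54 (0.20), with 0.08 without AIA-hot-WTD replicate 3 and 0.05 under normexp. The 4 B and plasma cell genes measured had 1.23 (0.95), with 0.045 under normexp. Of these 4, the control arrays measured 0, 3 and 1 well above background, so none met the filter on dim probes through control. Of the 11 mast cell genes measured, the control arrays had 2, 9 and 9 well above background. The heat shock family member Hspa4l had -3.64, -3.61 and -3.22 against -2.13, -2.86 and -2.54 in control (-0.98 ± 0.28, adjusted p = 0.148).

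Whether these differences were particular to treated rats was asked by comparing AIA-hot-WTD with AIA-hot directly. By limma 0 of 23597 genes passed, the smallest adjusted p was 0.999, and 540 had an unadjusted p under 0.05 (2.29%, 1.19% higher and 1.1% lower), below the 1180 that would come with no difference. Untreated AIA-hot against the same controls gave 13 calls (0.0551%), 3 higher (0.0127%) and 10 lower (0.0424%), and 12.1% at an unadjusted p under 0.05 (4.62% higher and 7.48% lower). The 3 higher were Il1b, Ccl3 and A_44_P543733. Because the controls are shared, the values are given side by side: Irak2 differed from control by -4.33 in AIA-hot-WTD and -4.15 in AIA-hot, Ubxn2b by -2.09 and -2.11, Dusp14 by -1.02 and -0.90, Ccl3 by 1.61 and 1.56, and Zbtb16 by 2.74 and 1.15. Zbtb16 in AIA-hot was spread over -1.07, -2.93 and -1.50, and its AIA-hot-WTD minus AIA-hot difference was 1.59 ± 0.45 (adjusted p = 0.999). S100a9 had 2.22, 3.60 and 2.54 in AIA-hot, and its AIA-hot-WTD minus AIA-hot difference was 2.18 ± 1.29. Between AIA-hot-WTD and AIA-cold-WTD synovium, 0 genes passed by limma, the smallest adjusted p was 0.503, and 837 had an unadjusted p under 0.05 (3.55%, 1.75% higher and 1.8% lower).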

How the data were processed

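Synovial RNA labelled with Cy3 was hybridised in 1 colour to Agilent rat arrays. The deposited scanner files hold an intensity for each spot; the submitters' processing notes name Agilent Feature Extraction 10.7, and the processed signal, per the file headers, had its local background removed and no scaling between arrays. The authors' deposited series table, which tracks the log2 signal of the same arrays but whose scale is not stated, served as an alternative.

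Control and outlier spots were left out, spots of a probe were averaged, and log2 signals were centred on each array's 75th percentile of gene probes. A probe was kept where all 3 arrays of some group measured it well above background (28259 probes), and a gene was its brightest kept probe (23598 genes, 11984 with a RefSeq symbol that is no placeholder, from the GRCr8 table). The 18 arrays entered 1 limma 3.58.1 fit (R 4.3.3; lmFit, eBayes) with a term for each group, 12 residual and 2.29 prior degrees of freedom. Calls needed a Benjamini-Hochberg adjusted p under 0.05. The number of arrays limits the precision.

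Genes were named by a fixed rule: called genes with a symbol and no overlap between arrays, then the smallest p until 20 were named, 22 preset genes, and up to 3 members of each list in order of p; called transcripts without a symbol and the others marked so were named after their values were seen. The members, the rule and the 39 lists (623 of 749 members measured) were chosen with earlier results of these data known. The BACs and methotrexate groups of the study are not analysed here; the other 4 groups enter the fit and the filter, and are otherwise used only where named. Some genes are not reported here. Normalization, background, filter, probe choice, moderation, array weights, slide and left-out arrays were varied.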

Additional observations from a re-analysis of the deposited data

Results flagged for a closer look

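Given here are 2 genes for which every AIA-hot-WTD array lay on one side of the control mean and every AIA-cold-WTD array on the other. They are not a count over all genes tested, and the share of all genes with this pattern is not given. Hbb-b1 differed from control by 1.03 (log2) in AIA-hot-WTD and by -0.22 in AIA-cold-WTD, and AIA-hot-WTD minus AIA-cold-WTD was 1.25 with a limma adjusted p of 1.000. Cfd, the adipocyte protease adipsin, differed from control by 0.45 and -0.34, and AIA-hot-WTD minus AIA-cold-WTD was 0.79 with a limma adjusted p of 0.984. The mean of the brown fat list lay 0.54 above control in AIA-hot-WTD and -0.15 from it in AIA-cold-WTD, a difference of 0.69, and that of the prostaglandin list 0.02 and -0.22, a difference of 0.24. The differences of the list means were not tested.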

How the results depend on the processing

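No paired analysis was possible because the replicate numbers follow accession order and pair no arrays. The count of genes called in AIA-hot-WTD against control (19, of which 7 higher and 12 lower) moved with most settings: 82 (37 higher, 45 lower) with quantile normalization, 85 (38 higher, 47 lower) with the authors' deposited series table, 1 (lower) with normexp, 32 (7 higher, 25 lower) with no filter on dim probes, 33 with the filter set on these groups only, 11 with no moderation, 1975 with array weights, which gave control replicate 1 a weight of 0.0874, and 0 with only the 6 arrays fitted, with slide as a random block (correlation 0.155) or with slide as a fixed block, which links the groups through 1 AIA and 1 AIA-hot array. The cause was not tested. Leaving out 1 array gave 0 to 77 calls: 22 without control replicate 1, 70 without control replicate 2, 77 without control replicate 3, 0 without AIA-hot-WTD replicate 1, 4 without replicate 2 and 0 without replicate 3; without control replicate 1 and AIA-hot-WTD replicate 3 together it was 7. The median of all genes was -0.06, -0.18 with normexp and -0.21 with no filter on dim probes. AIA-hot minus control (13 calls) had 22 with quantile normalization and 22 with the series table, 3 to 49 with 1 array left out and 4 with both left out. AIA-hot-WTD minus AIA-hot had 0 calls with quantile normalization and with the series table, 0 to 1 with 1 array left out and 2 with both left out; AIA-hot-WTD minus AIA-cold-WTD had 0, 0, 0 and 1.

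Signs turned for these named genes. Under normexp the log2 difference was -0.016 for Mocs3, 0.11 for Mmp3, 0.047 for Prg4, 0.0069 for Pgam1, -0.23 for A_44_P248371 and -0.20 for TC604605. With slide as a fixed block it was 0.15 for Wdr76, 2.91 for Mmp3, 0.79 for Per3, 0.13 for Ckm, -0.39 for Adipoq, 3.74 for Acan, 0.13 for Nfkbia, 0.39 for Mvd, 0.052 for Pgam1 and -0.058 for Cfd; with slide as a random block it was 0.29 for Mmp3 and 0.081 for Per3. Per3 had 0.33 with quantile normalization, 0.33 with the series table and 0.14 with array weights. With 1 array left out the values ran from -0.35 to 0.25 for Mmp3, -0.27 to 0.50 for Acp5, -0.15 to 0.12 for Per3, -2.58 to 0.89 for Ckm and -3.27 to 0.85 for Acan; with both left out Acan had 0.52. Dim signal, with 43.3% of probes well above background on control replicate 1, limits what its low genes show.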
